A study of Rattus norvegicus with 6 samples.

Results

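The cells described here are the endothelial cells of spinal cord, labelled as rat, that carried no UMI of the tip cell genes Apln, Esm1, Pgf and Angpt2, sorted into arterial, capillary and venous cells. They were chosen by marker UMIs (counted molecules) in 4 libraries. A cell needed at least 10 UMIs of Cldn5, Flt1, Pecam1, Cdh5 and Egfl7 together per 10000 of its UMIs, and at most 20 per 10000 of the phagocyte genes C1qa, C1qb and Tyrobp. Each cell then went to the segment with the most UMIs of Bmx, Gkn3 and Sema3g (arterial), Mfsd2a, Slc7a5 and Tfrc (capillary) or Ackr1, Vwf and Selp (venous). Of 26847 cells, 4075 were non-tip endothelium. Among these, 263 were arterial, 2797 capillary and 459 venous, while 223 had a tie between segments and 333 carried none of the 9 genes. Ties and cells without the 9 genes stay out of the segment results.

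Endothelium changes its gene expression along the vessel. Arterial cells line the vessels that bring blood under pressure and use Notch signalling, capillary cells of the nervous system carry most of the nutrient transporters and the barrier that is kept up by Wnt signalling, and venous cells, above all those of postcapillary venules, carry the adhesion molecules and chemokine receptors by which leukocytes leave the blood. After spinal cord injury the barrier opens, leukocytes enter through venules and new vessels grow from tip cells. The roles given below are as known from mouse and human, and gene names are in the form the tables use, which is that of mouse.

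The libraries hold cord from the injury site 1, 3 and 7 days after a crush at thoracic level 10, and intact cord. Animals were of the SD genotype and 6 to 8 weeks old in all 4 groups, and the labels give 5 animals for each condition in 1 library each. The labels attach the crush treatment to the intact library as well, but its title says intact, and the title was followed. Whole tissue of a 5-mm section was dissociated with collagenase and trypsin, and the labels name no sort for vessels. With 1 library per group there is no test between groups: intervals are at 95% and cover counting error only, and no difference below has a replicate check. Days 1, 3 and 7 share the same intact library. UMIs were summed over the cells of a segment in a library and are given as counts per 1000000 of that sum (CPM). A gene is called higher or lower where its CPM differed at least 2-fold between a day and intact cord with at least 10 UMIs over both sums.

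The libraries held 2757 cells in intact cord, 7360 at day 1, 9263 at day 3 and 7467 at day 7, with medians of 3090, 5339.5, 6648 and 3617 UMIs per cell in that order. Non-tip endothelium was 40.9%, 8.36%, 13% and 15.1% of their cells. Median depth lay between 2326 UMIs in day 7 arterial cells and 4832 UMIs in day 1 arterial cells. The libraries share 20 to 91 cell barcodes with each other, and at most 3 in any pair among non-tip endothelium.

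The endothelial label was set against 14 endothelial genes that the gate did not use, such as Tie1, Tek, Kdr and Sox18. They summed to between 10037 and 19178 CPM in the 12 segment sums and to between 197 and 595 CPM in the cells of the same libraries outside the gate. The 5 genes of the gate, which chose the cells, summed to between 8149 and 11951 CPM in the segments and to between 52.6 and 309.9 CPM outside it, and only describe the choice. Lymphatic markers stayed at or below 56.8 CPM in every segment. Pericyte and smooth muscle markers summed at day 3 to 1337 CPM in arterial, 652 in capillary and 475 in venous cells, above 151 outside the gate. At day 1 they summed to 710, 533 and 261 CPM, above 89.5 outside the gate. In intact cord and at day 7 only venous cells lay below the level outside the gate, at 63.5 against 224 CPM and 28.4 against 167 CPM. Markers of microglia and macrophages moved with the day: in capillary cells their 10 genes summed to 545 CPM in intact cord, 719 at day 1, 1909.8 at day 3 and 1674 at day 7, beside 13999, 20694, 49262 and 36329 CPM in the cells outside the gate. The part of either marker group in the results below was not tested.

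At the gate itself few cells were near the limit. Between 10 and 12 endothelial UMIs per 10000 there were 16 intact cells, 4 at day 1, 2 at day 3 and 1 at day 7, and between 8 and 10 there were 39, 0, 2 and 7. The split between segments was narrower, since a lead of 1 UMI decided 25 of 42 arterial, 186 of 905 capillary and 24 of 37 venous cells in intact cord. At day 1 a lead of 1 UMI decided 27 of 67 arterial, 63 of 108 capillary and 77 of 265 venous cells.

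Of the non-tip cells that the split assigned to a segment, almost all were capillary in intact cord and most venous at day 1. Of all non-tip cells, with unassigned cells counted, venous cells were 43.1% (39.1 to 47.1) at day 1. Capillary cells were 80.3% (77.9 to 82.6) of all non-tip cells in intact cord. Venous cells made up 60.2% (55.5 to 64.8) of the 440 assigned cells at day 1 and 3.76% (2.66 to 5.15) of the 984 in intact cord. Capillary cells were 24.5% (20.6 to 28.8) at day 1 and 92% (90.1 to 93.6) in intact cord. Arterial cells were 15.2% (12 to 18.9) at day 1 and 4.27% (3.09 to 5.73) in intact cord. The differences in percentage points were 56.5 (51.6 to 61) for venous, -67.4 (-71.5 to -62.8) for capillary and 11 (7.58 to 14.8) for arterial cells.

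By day 3 the capillary share was 84.7% (82.4 to 86.8) of 1099 assigned cells and the venous share 9.74% (8.05 to 11.6). At day 7 capillary cells were 85.6% (83.3 to 87.8) of 996, venous cells 5.02% (3.75 to 6.57) and arterial cells 9.34% (7.6 to 11.3). The differences from intact cord were -7.26 (-9.98 to -4.52) and -6.33 (-9.11 to -3.56) percentage points for capillary cells at days 3 and 7, 5.98 (3.85 to 8.13) and 1.26 (-0.563 to 3.1) for venous and 1.28 (-0.604 to 3.15) and 5.07 (2.87 to 7.32) for arterial cells. The intervals of the day 7 venous and day 3 arterial differences include 0. These sizes rested on single genes of the split. With Mfsd2a alone for capillary cells, the differences were -31.1 and -17.5 points for capillary cells at days 3 and 7, 28.5 and 8.91 for venous cells, and 8.58 for arterial cells at day 7. Without Vwf they were -3.28 for capillary and 1.57 for venous cells at day 3, and without Gkn3 the day 7 arterial difference was 1.98. As numbers of cells, there were 905, 108, 931 and 853 capillary and 37, 265, 107 and 50 venous cells over intact, day 1, day 3 and day 7. The 9 genes of the split chose these cells, so the shares describe the libraries and carry no test. Because the split reads RNA, a different mix of vessels and different levels of the 9 genes within vessels cannot be told apart.

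**Figure D1:**
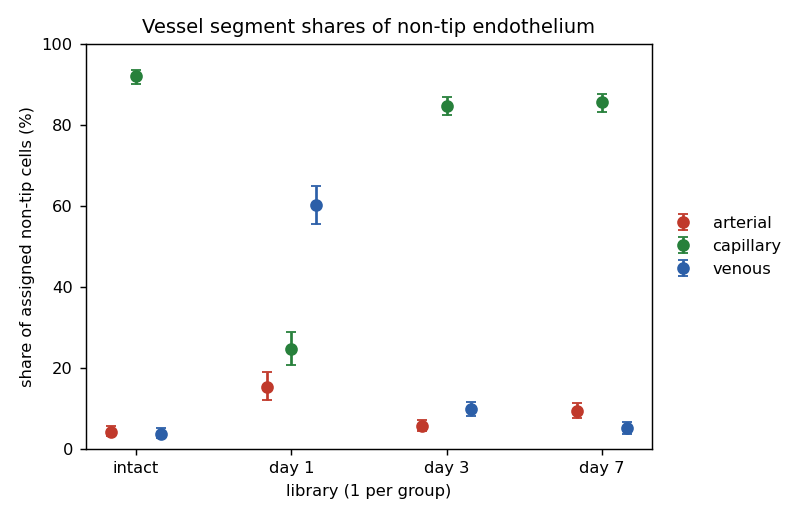
Share of assigned non-tip endothelial cells (percent, y axis) that fell to each vessel segment in the intact, day 1, day 3 and day 7 libraries (x axis). Points are shares and bars exact Clopper-Pearson 95% intervals for counting error. Venous cells stand at 60.2% at day 1 and under 10% in the other libraries, and capillary cells at 24.5% at day 1 and above 84% elsewhere.

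Over all non-tip cells, before any split, all 3 capillary genes were lower and all 3 venous genes higher at day 1. Slc7a5, the large neutral amino acid transporter, stood at 529 CPM in intact cord, 82.5 at day 1, 847 at day 3 and 751 at day 7. Tfrc, the transferrin receptor, stood at 187 CPM in intact cord, 25.6 at day 1, 192 at day 3 and 222 at day 7, and Mfsd2a, a lysolipid transporter that limits vesicle transport across the barrier, at 309.6 CPM in intact cord, 98.1 at day 1, 209 at day 3 and 297 at day 7. Only Mfsd2a was still below intact cord at day 3. Ackr1, the decoy chemokine receptor of venules, stood at 11 CPM in intact cord, 586 at day 1, 66.7 at day 3 and 48.3 at day 7. Vwf, the platelet-binding factor stored in endothelial granules, stood at 92.9 CPM in intact cord, 456 at day 1, 318 at day 3 and 189 at day 7, above intact cord on each day. Selp (P-selectin) gave no more than 21 CPM in any library. Of the arterial genes, Bmx and Sema3g were higher at day 1 with 53.6 CPM against 20.4 in intact cord and 110.1 CPM against 30.1 in intact cord, whereas Gkn3 was lower with 5.32 CPM against 44.9 in intact cord and stood highest at day 7 with 219 CPM. These values chose the segments and are a description.

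Nearly all venous cells carried Vwf in each library, while the share that carried Ackr1 differed between libraries. Vwf was found in 37 of 37 intact venous cells, 256 of 265 at day 1, 107 of 107 at day 3 and 49 of 50 at day 7. Ackr1, whose RNA marks venules more narrowly, was found in 3 of the 37 intact venous cells (8.11%, 1.7 to 21.9), 80 of 265 at day 1 (30.2%, 24.7 to 36.1), 36 of 107 at day 3 (33.6%, 24.8 to 43.4) and 25 of 50 at day 7 (50%, 35.5 to 64.5). Outside the gate an Ackr1 UMI was found in 0.33%, 1.17%, 0.734% and 0.539% of cells over intact, day 1, day 3 and day 7, at median depths of 3211, 5469.5, 7035 and 3844 UMIs, and over all non-tip cells in 0.621%, 14.3%, 4.39% and 3.55%. Selp changed no assignment: of 27 non-tip cells with Selp, 25 also carried Ackr1. With Vwf left out of the venous sum, 3 intact cells, 72 day 1 cells, 21 day 3 cells and 15 day 7 cells were venous, which is 0.303%, 19%, 1.87% and 1.49% of assigned cells. The day 1 excess was present in both versions, at 18.7 percentage points without Vwf and 56.5 with it.

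The exclusion of tip genes fell mostly on day 1. It took 602 of 1217 endothelial cells there (49.5%, 46.6 to 52.3), 193 of 1400 at day 3, 35 of 1161 at day 7 and 38 of 1165 in intact cord (3.26%, 2.32 to 4.45). By the same 9 genes the 602 cells of day 1 would have been 194 venous, 193 capillary and 40 arterial, with 65 ties and 110 cells with none of the 9 genes. With these cells kept, the venous share was 52.9% at day 1 and 3.73% in intact cord.

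Markers that the split did not use also differed over all non-tip cells at day 1. Of 17 other capillary markers measured, 10 were at least 2-fold lower and 2 higher (median log2 ratio -1.19), where 12.7% of all genes tested were lower and 11.1% higher. Of 18 other venous markers, 10 were higher and 0 lower (median 1.11). Of 17 other arterial markers, 4 were higher and 3 lower (median -0.19). At day 3, 6 of 18 venous markers were higher and 1 of 17 capillary markers lower, against 7.74% and 10.3% of all genes tested that were higher and lower. At day 7 the counts were 4 of 17 and 0 of 17, against 4.88% and 9.13% of all genes tested.

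Among these capillary markers Slc22a8, an organic anion transporter of the barrier, stood at 60.2 CPM against 440.2 in intact cord over all non-tip cells at day 1, a ratio of 0.137 (0.117 to 0.16). Car4, a carbonic anhydrase on the capillary surface, stood at 348 CPM against 1479 in intact cord, and Hmcn1 (hemicentin, a matrix protein) at 44.2 CPM against 301 in intact cord. The glucose transporter Slc2a1 did not follow them, with 2494 CPM against 2459 in intact cord, a ratio of 1.01 (0.984 to 1.05). Among the venous markers Lrg1, a secreted glycoprotein that acts on TGF-beta signalling in vessels, stood at 2004 CPM against 45.7 in intact cord. Nr2f2, the transcription factor of venous identity, stood at 97.8 CPM against 39.8 in intact cord, a ratio of 2.46 (2.02 to 3.00), and stood at 1.15 and 1.23 times intact cord at days 3 and 7. The E-selectin gene Sele was rare everywhere, with 22.3 CPM against 0.255 in intact cord. Slc38a5, Icam1 and Ctsc, which are also venous markers, lay between 0.889 and 1.18 times intact cord at day 1.

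**Figure D2:**
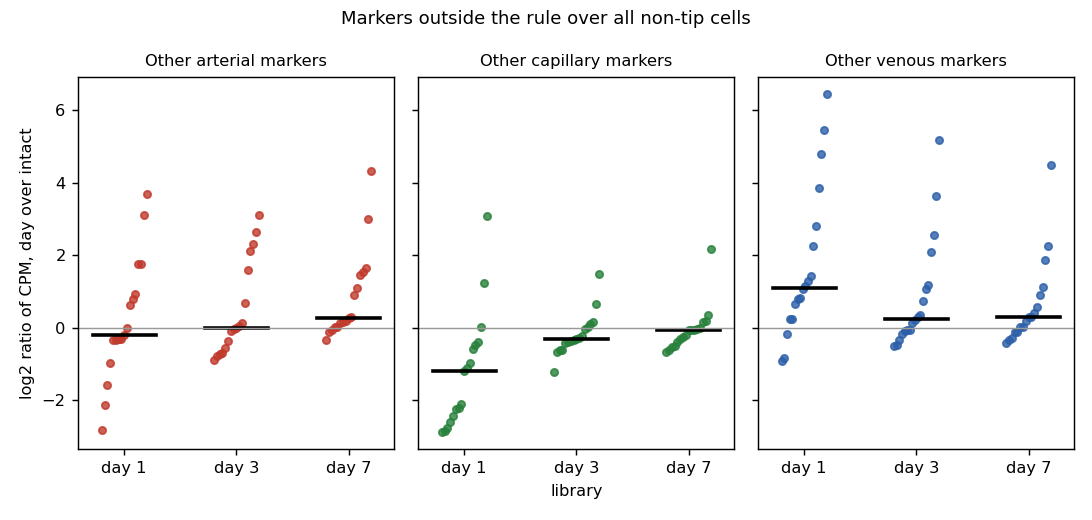
Log2 ratio of CPM, day over intact cord (y axis), of marker genes outside the split over all non-tip endothelial cells, for the 3 days (x axis). Each point is a gene and the bar is the median of the list. At day 1 the capillary median lies at -1.19 and the venous median at 1.11, and at days 3 and 7 all medians lie between -0.31 and 0.30.

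Within a library, the arterial markers outside the split were highest in arterial cells, while only part of the capillary markers were highest in capillary cells. Over intact, day 1, day 3 and day 7, this held for 14 of 14, 15 of 15, 17 of 17 and 17 of 17 arterial markers measured. It held for 14 of 16, 16 of 18, 14 of 18 and 15 of 17 venous markers, and for 9 of 16, 9 of 17, 12 of 17 and 12 of 17 capillary markers. In all 4 libraries it held for 13 of 13 arterial, 12 of 16 venous and 7 of 16 capillary markers with at least 10 UMIs in each. Because cells were split by RNA of the same cells, this is a description with no test.

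Arterial cells carried their own genes in each library. Gja4 (connexin 37, a gap junction protein of arterial endothelium) stood at 23.6 CPM in intact cord, 66.4 at day 1, 269 at day 3 and 161 at day 7 in arterial cells, and at most at 38.9 CPM in the other segments of any library, but 1 cell held 64.7% of its UMIs at day 3. Stmn2, a microtubule regulator, stood at 401 CPM in intact cord, 209.5 at day 1, 506 at day 3 and 471 at day 7. Timp3, an inhibitor of matrix proteases, stood at 1758 CPM in intact cord, 1342 at day 1, 1989 at day 3 and 1509.5 at day 7, against 349 to 681 CPM in the other segments. Glul (glutamine synthetase) stood at 2412 CPM in intact cord, 1949.8 at day 1, 2624 at day 3 and 2552 at day 7, and Slc6a6 (the taurine transporter) at 1746 CPM in intact cord, 1331 at day 1, 2131 at day 3 and 1953 at day 7. The Notch target Hey1 was lowest at day 1, at 165 CPM in intact cord, 79.2 at day 1, 101 at day 3 and 196 at day 7, and Alpl (alkaline phosphatase) likewise, at 201 CPM in intact cord, 35.8 at day 1, 256 at day 3 and 235 at day 7. By the rule for segment genes, 94 of 373 eligible genes were highest in arterial cells in all 4 libraries.

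Capillary cells led in fewer of the markers named for them. Car4 stood at 1568 CPM in intact cord, 466 at day 1, 1366 at day 3 and 1105 at day 7 in capillary cells, above 1032 CPM in intact cord, 336 at day 1, 544 at day 3 and 472 at day 7 in venous cells. Rgcc, a cell cycle regulator of endothelium, stood at 660.4 CPM in intact cord, 162 at day 1, 483 at day 3 and 432 at day 7, and Gsta4, a glutathione transferase, at 497 CPM in intact cord, 481 at day 1, 569 at day 3 and 828 at day 7. Of the transporters, Slc3a2, the partner chain of Slc7a5, stood at 1139.9 CPM in intact cord, 728 at day 1, 1176 at day 3 and 1049 at day 7 and Slc7a1, a cationic amino acid transporter, at 486 CPM in intact cord, 110.1 at day 1, 470 at day 3 and 429.7 at day 7. Of 1409 eligible genes, 63 were highest in capillary cells in all 4 libraries.

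In venous cells Lrg1 stood at 842 CPM in intact cord, 2866 at day 1, 976 at day 3 and 853 at day 7, and in intact cord at 17.8 CPM in capillary and 0 CPM in arterial cells. Lcn2 (lipocalin 2, a siderophore-binding acute phase protein) stood at 556 CPM in intact cord, 1508 at day 1, 211 at day 3 and 296 at day 7; outside the gate its level was 393, 436, 34.6 and 286 CPM. Vcam1, which binds leukocyte integrins, stood at 579.7 CPM in intact cord, 299 at day 1, 515 at day 3 and 1904 at day 7, and Icam1, the other main integrin ligand, at 421 CPM in intact cord, 253 at day 1, 342 at day 3 and 659 at day 7. Il1r1, the receptor for interleukin 1, stood at 119 CPM in intact cord, 79.7 at day 1, 138 at day 3 and 142 at day 7 in venous cells and at no more than 32.6 CPM in the other segments. Slc38a5, a glutamine transporter, stood at 1024 CPM in intact cord, 535 at day 1, 613 at day 3 and 619 at day 7. Of 222 eligible genes, 22 were highest in venous cells in all 4 libraries.

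**Figure D3:**
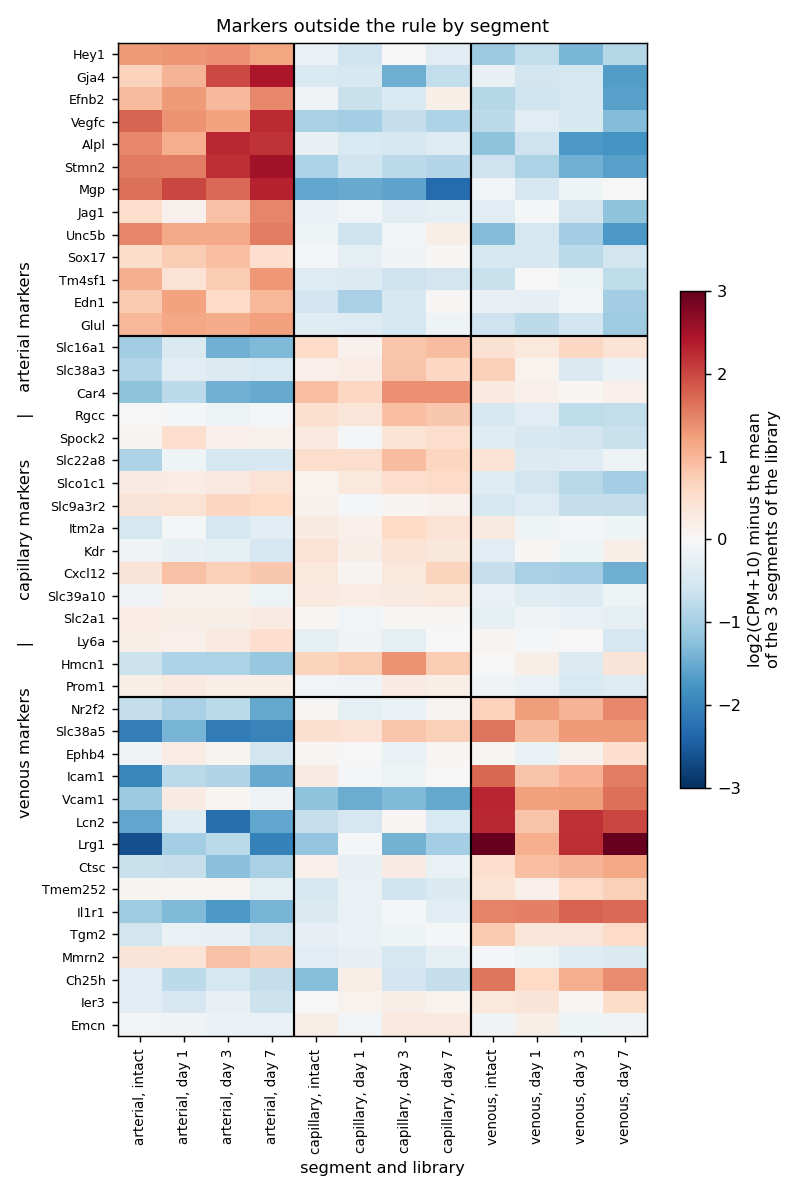
Most of the markers outside the split (rows) in arterial, capillary and venous cells of the 4 libraries (columns), as log2 of CPM plus 10 minus the mean of the 3 segments of the same library; red is above that mean and blue below. The 13 arterial markers are red in all 4 arterial columns and the venous block is red for Vcam1, Lcn2, Lrg1 and Il1r1.

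At day 1 Igfbp7 and Igfbp4 were the only genes among the 5 highest ratios of all 3 segments. Igfbp7, a secreted protein of the vascular basement membrane that binds insulin-like growth factors, stood at 15843 CPM against 419 in intact cord in arterial cells, a ratio of 37.8 (30 to 48.5). In capillary cells it stood at 13910.5 CPM against 305 in intact cord, a ratio of 45.7 (42.7 to 48.8), and in venous cells at 11859 CPM against 357 in intact cord, a ratio of 33.2 (24.8 to 45.5). It was among the 5 highest ratios of each segment on each day. At day 3 it stood at 7524, 5233 and 6488 CPM in arterial, capillary and venous cells, and at day 7 at 4097, 3138 and 2279 CPM. Cells outside the gate gave at most 123 CPM. Among all genes the called shares were 15.3% and 10.4% higher and lower at day 1 in arterial cells, 11.7% and 13.1% in capillary cells and 13.4% and 16% in venous cells.

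Igfbp4, another secreted binding protein of this family, stood at 1331 CPM against 0 in intact cord in arterial cells at day 1. With the 0 set to a floor of 3 counts this was 75.2-fold higher, and the lower limit of the interval was 61-fold. In capillary cells Igfbp4 stood at 423 CPM against 2.14 in intact cord, a ratio of 197 (94.2 to 497) on 7 intact UMIs. In venous cells it stood at 1012 CPM against 7.94 in intact cord, a ratio of 127 (22.8 to 5038) on 1 intact UMI. Every value of 7.94 CPM given for intact venous cells is 1 UMI. Lrg1 stood at 657 CPM against 0 in intact cord in arterial cells. Against the same floor this was 37.1-fold higher, with a lower limit of 30-fold. In capillary cells Lrg1 stood at 1279 CPM against 17.8 in intact cord, a ratio of 72 (55 to 95.9). A lead of 1 UMI decided 63 of 108 capillary cells at day 1 and 186 of 905 in intact cord. The part of this in the capillary ratios was not tested. Scgb3a1, a secreted secretoglobin, stood at 137 CPM in intact cord, 2245 at day 1, 208 at day 3 and 218 at day 7 in capillary cells. In venous cells Tubb6, a beta-tubulin, stood at 305 CPM, Igfbp3 at 263 CPM and Tmem238 at 137 CPM, each against 0 in intact cord. Against the floor of 3 counts over the group these were 12.8-fold, 11-fold and 5.74-fold higher. The lower limits of their intervals were 10.4-fold, 8.92-fold and 4.62-fold. Outside the gate Tubb6 stood at 184 CPM at day 1 and 34.1 in intact cord. Vgf and Elane also met the naming rule in capillary cells at day 1, but 1 cell held 98.8% and 100% of their UMIs.

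Itm2a, Pltp and Ptn were among the 5 lowest ratios of all 3 segments at day 1. All 3 were also lower outside the gate at day 1. There Itm2a stood at 9.83 CPM against 219 in intact cord, Pltp at 37.5 against 465 and Ptn at 16.3 against 128. Itm2a, a membrane protein of barrier endothelium, stood at 1099 CPM against 7246 in intact cord in capillary cells, a ratio of 0.152 (0.139 to 0.165), and at 901 CPM against 7243 in intact cord in venous cells, a ratio of 0.124 (0.114 to 0.135). In arterial cells it stood at 953 CPM against 4187 in intact cord, a ratio of 0.228 (0.200 to 0.258). Pltp, the phospholipid transfer protein, stood at 3131 CPM in intact cord, 379 at day 1, 2088 at day 3 and 2407 at day 7 in capillary cells, and Ptn, the secreted growth factor pleiotrophin, at 2233 CPM in intact cord, 336 at day 1, 1238 at day 3 and 1812 at day 7. In venous cells Ptn stood at 199 CPM against 2335 in intact cord, a ratio of 0.0852 (0.0723 to 0.100). Stmn1 and Tsc22d1 were among the lowest in arterial cells with 102 CPM against 495 in intact cord and 767 CPM against 3279 in intact cord, where Stmn1 stood outside the gate at 106 CPM at day 1 and 109 in intact cord. Car5a and Pik3ip1 were so in capillary cells, with 9.66 CPM against 132 in intact cord and 25.1 CPM against 200.2 in intact cord, and Slc22a8 and Sparcl1 in venous cells, with 46.9 CPM against 429 in intact cord and 121 CPM against 826 in intact cord. Of these further genes, all but Stmn1 were clearly lower outside the gate too. There Tsc22d1 stood at 110 CPM at day 1 against 426 in intact cord, and Sparcl1 at 13.4 against 203. Pik3ip1 stood there at 7.24 CPM against 28.2, Slc22a8 at 0.163 against 18.1 and Car5a at 0.116 against 2.05. The part of this wider difference in the segment ratios was not tested. By day 7 Itm2a stood at 4959.9, 8269 and 5627 CPM in arterial, capillary and venous cells.

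At days 3 and 7 Klf2 was among the 5 highest ratios in capillary cells. Jund was so in arterial and capillary cells on both days and in venous cells at day 7. Klf2, which shear stress induces in endothelium, stood at 727 CPM in intact cord, 3226 at day 1, 4155 at day 3 and 5362 at day 7 in capillary cells, and Jund, an AP-1 subunit, at 258 CPM in intact cord, 1897 at day 1, 2134 at day 3 and 3704 at day 7. Both were also higher in cells outside the gate, where Klf2 stood at 903 CPM at day 7 against 202 in intact cord and Jund at 859 against 113. Bri3 was in this set as well, with 309.8 CPM against 23.6 in intact cord in arterial cells at day 3 and 586 CPM against 49 outside the gate. Tbx1, a T-box transcription factor, was not seen outside the gate beyond 0.838 CPM and stood at 17.1 CPM in intact cord, 155 at day 1, 148 at day 3 and 125 at day 7 in capillary cells. Dbp, a transcription factor of the circadian clock, stood at 33.1 CPM in intact cord, 11.6 at day 1, 178 at day 3 and 289.6 at day 7. Mgp, an inhibitor of calcification made by arteries, stood at 259.5 CPM in intact cord, 2272 at day 1, 1717 at day 3 and 1635 at day 7 in arterial cells and at 19 CPM in intact cord, 189 at day 1, 169 at day 3 and 56.9 at day 7 in capillary cells. Outside the gate Mgp stood at 154 CPM in intact cord, 178 at day 1, 336 at day 3 and 146 at day 7.

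At day 3 the lowest ratios in arterial cells were those of Abhd2, Dusp3, Actb, Cav2 and Isg15, between 0.281 and 0.346 times intact cord. Actb stood outside the gate at 6164 CPM against 8658 in intact cord. In capillary cells they were Gstp1, Ftl1-ps1, Ly6c2, Chek2 and Ccdc85b, of which Gstp1 stood at 19.1 CPM against 133 in intact cord and at 11.3 CPM against 119 outside the gate. Ftl1-ps1 stood outside the gate at 221 CPM against 205 in intact cord and Ly6c2 at 42.7 CPM against 102 in intact cord. Chek2 stood there at 13.4 CPM against 109 in intact cord and Ccdc85b at 5.34 CPM against 33.8 in intact cord. The intact and day 1 tables spell 2104 gene names otherwise than the later tables. The part of any difference in processing in these ratios was not tested. In venous cells they included Ccdc85b, Cav2, Slc38a3 and Cxcl12. S100a6 stood at 601 CPM against 23.8 in intact cord in venous cells, at 935 CPM outside the gate. Sfrp4 also met the naming rule there, with 98.7% of its UMIs in 1 cell.

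At day 7 Vcam1 stood at 553 CPM against 47.2 in intact cord in arterial cells, a ratio of 11.7 (5.79 to 27.7), and at 1904 CPM against 579.7 in intact cord in venous cells, a ratio of 3.28 (2.54 to 4.29). Cxcl1, a neutrophil chemokine, stood at 214 CPM in intact cord, 98.5 at day 1, 402 at day 3 and 1171 at day 7 in venous cells. Cxcl2, which acts on the same receptor, stood at 591 CPM against 7.94 in intact cord in venous cells at day 7, but its level outside the gate was 969 CPM. Hes1, a Notch target, stood at 262 CPM in intact cord, 165 at day 1, 424 at day 3 and 1438 at day 7 in venous cells. Among the lowest were Nostrin, Neat1, Cdkn1a, Car4 and Dusp3 in arterial cells, Chek2, Ceacam1, Ly6c2 and Emp2 in capillary cells, and Cxcl12, Tuba1a, Calr, Slco1c1 and Slc38a3 in venous cells. The 4 capillary genes were also lower outside the gate. There Chek2 stood at 15.8 CPM against 109 in intact cord and Ceacam1 at 4.56 CPM against 21.8. Ly6c2 stood there at 85.9 CPM against 102 in intact cord and Emp2 at 4.11 CPM against 21.8. Neutrophil markers summed to 2666 CPM in venous cells at day 7 and 405 CPM in intact cord, and their part in the venous values was not tested.

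**Figure D4:**
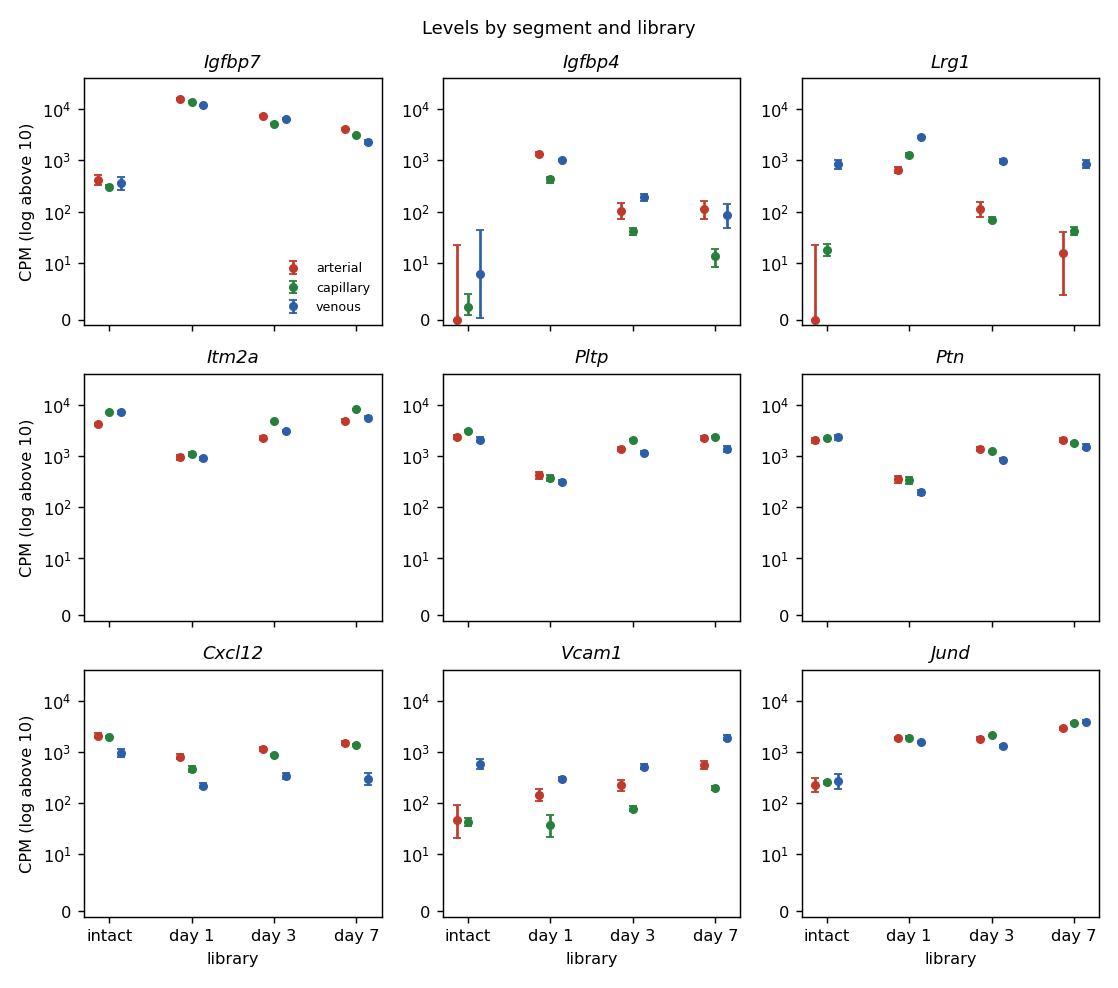
Level of 9 genes (CPM, log scale above 10) in arterial, capillary and venous cells of the intact, day 1, day 3 and day 7 libraries. Points are summed counts and bars exact Poisson 95% intervals. Igfbp7 lies between 11859 and 15843 CPM at day 1 in all segments, Itm2a, Pltp and Ptn are lowest at day 1, and Lrg1 and Vcam1 are highest in venous cells of every library.

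Genes of the barrier were more often lower than higher at day 1, with the lowest median in venous cells. Ackr1 was found in 3 of the 37 intact venous cells, 80 of 265 at day 1, 36 of 107 at day 3 and 25 of 50 at day 7. The part of this different make-up in the venous values of any day was not tested. The capillary class differed as well, since a lead of 1 UMI decided 63 of 108 capillary cells at day 1 and 186 of 905 in intact cord. The part of that difference in the capillary values was not tested. Of the barrier transporters outside the split, 0 of 23 were higher and 12 lower (median log2 ratio -1.01) in venous cells at day 1, where 13.4% and 16% of all genes tested were higher and lower. In capillary cells 1 of 24 were higher and 8 lower (median log2 ratio -0.70), against 11.7% and 13.1% of all genes tested, and in arterial cells 0 of 21 were higher and 7 lower (median log2 ratio -0.57), against 15.3% and 10.4% of all genes tested. Slc22a8 stood at 98.5 CPM against 465 in intact cord in capillary cells, and Slc40a1 (ferroportin, the iron exporter) at 65.7 CPM against 427 in intact cord. In venous cells the thiamine transporter Slc19a3 stood at 8.04 CPM against 79.4 in intact cord. Slc7a1 stood at 48.6 CPM against 271 in intact cord in arterial cells, a ratio of 0.179 (0.099 to 0.312).

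At day 3 the venous count was 1 of 21 higher and 7 lower (median log2 ratio -0.61), against 11.3% and 16.8% of all genes tested, while in capillary cells 2 of 25 were higher and 0 lower (median log2 ratio -0.13), against 7.09% and 8.96% of all genes tested, and in arterial cells 0 of 22 were higher and 1 lower (median log2 ratio -0.26), against 11.5% and 10.1% of all genes tested. Slc38a3, a glutamine transporter, stood at 131 CPM against 429 in intact cord in venous cells and at 336 CPM against 287 in intact cord in capillary cells. At day 7, 1 of 21 were higher and 5 lower (median log2 ratio -0.34) in venous cells, against 9.41% and 14.6% of all genes tested, 1 of 24 were higher and 1 lower (median log2 ratio -0.18) in capillary cells, against 4.9% and 8.48% of all genes tested, and 0 of 21 were higher and 2 lower (median log2 ratio -0.14) in arterial cells, against 8.94% and 9.58% of all genes tested. The thyroid hormone and anion transporter Slco1c1 stood at 273 CPM against 707 in intact cord in venous cells and at 844 CPM against 978 in intact cord in capillary cells.

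The Wnt signalling and barrier programme list had, at day 1, 1 of 21 higher and 10 lower (median log2 ratio -0.89) in venous, 0 of 23 higher and 10 lower (median log2 ratio -0.75) in capillary and 0 of 21 higher and 6 lower (median log2 ratio -0.39) in arterial cells. The shares over all genes are those given for the transporters, as are the limits on the make-up of the venous and capillary classes. At day 3 it had 2 of 22 higher and 7 lower (median log2 ratio -0.52) in venous cells, against 11.3% and 16.8% of all genes tested, 2 of 24 higher and 0 lower in capillary cells, against 7.09% and 8.96%, and 4 of 22 higher and 1 lower in arterial cells, against 11.5% and 10.1%. The Wnt target Axin2 stood at day 1 at 7.67 CPM against 106 in intact cord in arterial cells. In venous cells it stood at day 1 at 14.1 CPM against 55.6 in intact cord. The day 1 arterial sum holds 391331 UMIs, so its Axin2 value rests on few UMIs. Spock2, a matrix proteoglycan of barrier endothelium, stood at 1543 CPM in intact cord, 270.4 at day 1, 1809.8 at day 3 and 1776 at day 7 in capillary cells. Lef1, a transcription factor that carries the Wnt signal, stood at 311 CPM in intact cord, 185 at day 1, 157 at day 3 and 225 at day 7. Foxq1, a forkhead factor of barrier endothelium, went the other way and stood at 163 CPM in intact cord, 216 at day 1, 502 at day 3 and 531 at day 7 in capillary, 165 CPM in intact cord, 194 at day 1, 487 at day 3 and 514 at day 7 in arterial and 95.3 CPM in intact cord, 175 at day 1, 282 at day 3 and 352 at day 7 in venous cells. At day 7, 3 of 24 list members were higher and 0 lower in capillary, 1 of 20 higher and 0 lower in venous and 3 of 21 higher and 2 lower in arterial cells. Of all genes tested at day 7, 4.9% and 8.48% were higher and lower in capillary, 9.41% and 14.6% in venous and 8.94% and 9.58% in arterial cells.

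Few junction genes were called. At day 1, 1 of 14 were higher and 1 lower (median log2 ratio -0.15) in arterial, 2 of 19 were higher and 2 lower (median log2 ratio -0.02) in capillary and 1 of 18 were higher and 2 lower (median log2 ratio -0.29) in venous cells. At that day 15.3% and 10.4% of all genes tested were higher and lower in arterial, 11.7% and 13.1% in capillary and 13.4% and 16% in venous cells. Tjp1 (ZO-1, the scaffold of tight junctions) stood at 132 CPM against 357 in intact cord in venous cells, a ratio of 0.369 (0.266 to 0.523), and Ctnnb1 (beta-catenin) at 246 CPM against 516 in intact cord. Gja1 (connexin 43) stood higher, with 151 CPM against 31.8 in intact cord. Ocln (occludin) stood at 152 CPM against 324 in intact cord in arterial cells at day 3. Among genes of caveolae and vesicles, 3 of 15 were higher and 4 lower (median log2 ratio 0.08) in capillary cells at day 1, against 11.7% and 13.1% of all genes tested. Cav1, the main protein of caveolae, stood at 433 CPM in intact cord, 102 at day 1, 404 at day 3 and 393 at day 7, and Cavin2, its coat protein, at 149 CPM against 678 in intact cord at day 1. Emp1, an epithelial membrane protein, and Anxa2, an annexin, were higher, at 143 CPM against 12.9 in intact cord and 1012 CPM against 332 in intact cord, with 219.8 and 833 CPM outside the gate. Plvap, the protein of fenestral diaphragms, reached 47.4 CPM in arterial cells at day 3 and no more than 21.5 CPM in any other sum.

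Adhesion genes had medians near 0, with called members in both directions. At day 1, 4 of 14 were higher and 2 lower (median log2 ratio -0.02) in arterial, 7 of 22 were higher and 3 lower (median log2 ratio -0.15) in capillary and 4 of 20 were higher and 2 lower (median log2 ratio -0.08) in venous cells. Over all genes tested the shares higher and lower were 15.3% and 10.4% in arterial, 11.7% and 13.1% in capillary and 13.4% and 16% in venous cells. Vcam1 in venous cells stood at 299 CPM against 579.7 in intact cord at day 1, a ratio of 0.517 (0.403 to 0.671), and Icam1 at 253 CPM against 421 in intact cord. Neither differed 2-fold. Sele stood at 7.94 CPM in intact cord, 37.5 at day 1, 44.3 at day 3 and 56.8 at day 7 in venous cells. Mcam, an adhesion molecule of growing vessels, stood at 151 CPM against 11.8 in intact cord in arterial and 67.6 CPM against 4.29 in intact cord in capillary cells at day 1. Emcn (endomucin, a sialomucin of capillaries and veins) stood at 382 CPM against 832 in intact cord in capillary cells. Selplg, the P-selectin ligand of leukocytes, was lower in arterial and capillary cells, with 11.6 CPM against 46.2 in intact cord in capillary cells, but reached 1564 CPM outside the gate in intact cord.

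Of the chemokines, Cxcl12, which endothelium itself makes and which holds cells that carry Cxcr4 at the vessel, stood below intact cord on each day in all 3 segments. In capillary cells it stood at 1961 CPM in intact cord, 458 at day 1, 871 at day 3 and 1362 at day 7, and in venous cells at 969 CPM in intact cord, 218 at day 1, 338 at day 3 and 301 at day 7. Ccl2 and Ccl4, both chemokines of monocytes and macrophages, were more abundant outside the gate: Ccl4 stood at 133 CPM against 17.7 in intact cord in arterial cells and at 3136 CPM outside the gate. By list, 6 of 11 were higher and 2 lower (median log2 ratio 2.02) in arterial, 7 of 15 were higher and 2 lower (median log2 ratio 0.76) in capillary and 6 of 13 were higher and 3 lower (median log2 ratio 0.83) in venous cells at day 1. Of all genes tested, 15.3% and 10.4% were higher and lower in arterial, 11.7% and 13.1% in capillary and 13.4% and 16% in venous cells. Of these members, 7 of 11 in arterial, 10 of 15 in capillary and 8 of 13 in venous cells lay below 0.5 of the level outside the gate in both libraries.

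Genes of the cytokine and NF-kB response were more often higher than lower at day 1, with 11 of 26 higher and 0 lower (median log2 ratio 0.96) in arterial, 12 of 30 were higher and 3 lower (median log2 ratio 0.56) in capillary and 10 of 29 were higher and 3 lower (median log2 ratio 0.10) in venous cells. All genes tested gave 15.3% higher and 10.4% lower in arterial, 11.7% and 13.1% in capillary and 13.4% and 16% in venous cells. Ch25h, an enzyme that makes an oxysterol, stood at 338 CPM against 7.35 in intact cord in capillary cells, a ratio of 46 (29.9 to 73.7), and at 455 CPM against 119 in intact cord in venous cells. Upp1, uridine phosphorylase, stood at 124 CPM against 1.84 in intact cord in capillary cells, and Il4ra, the interleukin 4 receptor chain, at 116 CPM against 7.94 in intact cord in venous cells. Irf1, an interferon regulatory factor, went the other way with 23.2 CPM against 103 in intact cord and 38.9 CPM against 151 in intact cord in capillary and venous cells. Of the NF-kB feedback genes, Nfkbiz stood at 54.9 CPM against 159 in intact cord in venous cells at day 1 and Tnfaip3 at 142 CPM against 23.8 in intact cord at day 7.

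More interferon response genes were lower than higher at days 1 and 3, though in capillary cells at day 3 the share was near that of all genes. At day 1, 2 of 32 were higher and 15 lower (median log2 ratio -0.70) in arterial, 5 of 33 were higher and 11 lower (median log2 ratio -0.71) in capillary and 3 of 32 were higher and 13 lower (median log2 ratio -0.85) in venous cells. Over all genes tested the shares higher and lower were 15.3% and 10.4% in arterial, 11.7% and 13.1% in capillary and 13.4% and 16% in venous cells. At day 3 the counts were 0 of 31 higher and 16 lower (median log2 ratio -1.03) in arterial, 1 of 33 were higher and 4 lower (median log2 ratio -0.58) in capillary and 1 of 29 were higher and 12 lower (median log2 ratio -0.98) in venous cells. Of all genes tested at day 3, 11.5% and 10.1% were higher and lower in arterial, 7.09% and 8.96% in capillary and 11.3% and 16.8% in venous cells. By day 7 arterial and capillary medians were 0.04 and 0.22, with -0.48 in venous cells. Rsad2 (viperin, an antiviral enzyme) stood at 136 CPM in intact cord, 20.4 at day 1, 41.1 at day 3 and 47.1 at day 7 in arterial cells, and Gbp3, a guanylate-binding protein, at 206 CPM in intact cord, 38.3 at day 1, 79 at day 3 and 86.3 at day 7. Ifit3b stood at 88.5 CPM in intact cord, 10.2 at day 1, 3.16 at day 3 and 19.6 at day 7. The antiviral membrane proteins Ifitm1 and Ifitm2 were exceptions at day 1: in capillary cells Ifitm1 stood at 354 CPM against 13.2 in intact cord and Ifitm2 at 1939 CPM against 669.6 in intact cord. Outside the gate Ifitm1 stood at 229 CPM against 40.1 in intact cord and Ifitm2 at 494 CPM against 259 in intact cord. Antigen presentation genes had 0 of 17 higher and 1 lower (median log2 ratio 0.02) in arterial, 1 of 22 higher and 1 lower (median log2 ratio 0.27) in capillary and 4 of 21 higher and 3 lower (median log2 ratio -0.17) in venous cells at day 1. At day 3 they had 0 of 16 higher and 5 lower (median log2 ratio -0.49) in arterial, 0 of 24 higher and 0 lower (median log2 ratio -0.21) in capillary and 0 of 20 higher and 1 lower (median log2 ratio -0.30) in venous cells.

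More basement membrane genes were higher than lower at days 1 and 3. At day 1, 9 of 24 were higher and 2 lower (median log2 ratio 0.40) in arterial, 10 of 27 were higher and 2 lower (median log2 ratio 0.73) in capillary and 11 of 25 were higher and 2 lower (median log2 ratio 0.54) in venous cells. Of all genes tested, 15.3% and 10.4% were higher and lower in arterial, 11.7% and 13.1% in capillary and 13.4% and 16% in venous cells. At day 3, 10 of 29 were higher and 0 lower (median log2 ratio 0.43) in capillary and 10 of 25 were higher and 0 lower (median log2 ratio 0.59) in venous cells, against 7.09% and 8.96% of all genes tested in capillary and 11.3% and 16.8% in venous cells. In arterial cells 5 of 23 were higher and 0 lower (median log2 ratio 0.53), against 11.5% and 10.1%. Markers of other cells of the vessel wall moved with the list. The 6 fibroblast markers summed to 307 CPM at day 1 against 16.2 in intact cord in capillary cells, and to 260.2 CPM at day 3 against 23.8 in intact cord in venous cells. Pericyte and smooth muscle markers summed to 533 CPM at day 1 against 233 in intact cord in capillary cells, and to 475 CPM at day 3 against 63.5 in intact cord in venous cells. Their part in the list was not tested. Col4a1 and Col4a2 encode the paired chains of type IV collagen. Col4a1 stood at 195 CPM in intact cord, 799.8 at day 1, 224 at day 3 and 149 at day 7 in arterial, 182 CPM in intact cord, 578 at day 1, 251 at day 3 and 164 at day 7 in capillary and 167 CPM in intact cord, 697 at day 1, 445 at day 3 and 216 at day 7 in venous cells. Col4a2 stood at 71.5 CPM in intact cord, 618 at day 1, 339 at day 3 and 136 at day 7 in venous cells. Sparcl1, a matricellular protein, was lower at day 1, with 139 CPM against 803 in intact cord in capillary cells, and stood at 1084 CPM at day 3.

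Genes of sprouting other than the tip genes had 4 of 28 higher and 3 lower (median log2 ratio 0.05) in arterial, 10 of 33 were higher and 4 lower (median log2 ratio 0.10) in capillary and 7 of 32 were higher and 3 lower (median log2 ratio 0.16) in venous cells at day 1. All genes tested gave 15.3% higher and 10.4% lower in arterial, 11.7% and 13.1% in capillary and 13.4% and 16% in venous cells. The medians of all genes were 0.08, -0.01 and -0.04. Nid1 (nidogen) stood at 91.8 CPM against 31.8 in intact cord in venous cells, Flt4 (the VEGF-C receptor) at 69.7 CPM against 15.9 in intact cord, and Nrp1 (a VEGF coreceptor) at 176 CPM against 377 in intact cord in capillary cells. Among Notch genes, Nrarp, a feedback inhibitor, stood at 6.12 CPM in intact cord, 40.6 at day 1, 53.4 at day 3 and 41.6 at day 7 in capillary cells and 0 CPM in intact cord, 43.4 at day 1, 88.5 at day 3 and 58.8 at day 7 in arterial cells, and Notch4 stood at 125 CPM against 23.6 in intact cord in arterial cells. Hey1 stood at 13.5 CPM against 54.5 in intact cord and Hes1 at 168 CPM against 498 in intact cord in capillary cells, lower at day 1, and Hes1 reached 1193 CPM at day 7. Smad6, an inhibitor of BMP signalling, stood at 17.7 CPM in intact cord, 109.9 at day 1, 82.2 at day 3 and 94.1 at day 7 in arterial cells, and Ltbp4, which stores TGF-beta, at 141 CPM against 442 in intact cord at day 1.

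Coagulation genes were more often higher than lower at day 1, with 5 of 12 higher and 1 lower (median log2 ratio 0.83) in arterial, 5 of 14 were higher and 1 lower (median log2 ratio 0.54) in capillary and 4 of 14 were higher and 1 lower (median log2 ratio 0.60) in venous cells. Over all genes tested the shares higher and lower were 15.3% and 10.4% in arterial, 11.7% and 13.1% in capillary and 13.4% and 16% in venous cells. Plaur, the urokinase receptor, stood at 309 CPM against 47.7 in intact cord in venous cells and at 363 CPM outside the gate. Procr, the receptor of protein C, stood at 23.8 CPM in intact cord, 89.8 at day 1, 95.2 at day 3 and 102 at day 7, with no more than 17.3 CPM outside the gate. Gas6, the ligand of the TAM receptors, was lower in all segments at day 1, with 43.4 CPM against 259.5 in intact cord, 34.8 CPM against 226 in intact cord and 50.3 CPM against 294 in intact cord in arterial, capillary and venous cells. Of the genes of vessel tone, Ace (angiotensin-converting enzyme) stood at 94.5 CPM against 17.7 in intact cord in arterial, 69.5 CPM against 12.9 in intact cord in capillary and 73 CPM against 15.9 in intact cord in venous cells at day 1. Edn1 (endothelin 1, a constrictor) stood at 86 CPM in intact cord, 44.4 at day 1, 248 at day 3 and 238 at day 7 in capillary cells. Ptgis, the prostacyclin synthase, stood at 7.94 CPM in intact cord, 38.9 at day 1, 85.8 at day 3 and 102 at day 7 in venous cells.

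Few non-tip cells carried a UMI of Top2a. Without thinning, Top2a, a topoisomerase of dividing cells, was found in 2 of 1127 intact cells, 2 of 615 at day 1, 29 of 1207 at day 3 (2.4%) and 3 of 1126 at day 7, and in 9.07% of cells outside the gate at day 3. With every cell thinned to 1000 UMIs it was found in 0.497% (0.183 to 1.08) of day 3 non-tip cells and 2.1% (1.79 to 2.44) of the cells outside the gate. Median depths at day 3 were 3750 UMIs in capillary cells and 7035 UMIs outside the gate. The part of free RNA from other cells in these shares was not tested. In the capillary sum at day 3, 16 of 31 were higher and 1 lower (median log2 ratio 1.37), against 7.09% and 8.96% of all genes tested, and 12 of the 31 members lay below 0.5 of the level outside the gate in both libraries. With cells thinned, that median was -0.28. Cdkn1a, an inhibitor of the cycle, stood below intact cord in capillary cells on each day, at 758 CPM in intact cord, 394 at day 1, 327 at day 3 and 321 at day 7.

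The list of genes of an endothelial to mesenchymal change had 7 of 13 higher and 1 lower (median log2 ratio 1.48) in arterial cells at day 7, against 8.94% and 9.58% of all genes tested. At day 3 it had 12 of 20 higher and 0 lower (median log2 ratio 1.12) in capillary cells, against 7.09% and 8.96%. On that day it had 6 of 13 higher and 0 lower (median log2 ratio 0.94) in venous cells, against 11.3% and 16.8%, and 5 of 12 higher and 1 lower (median log2 ratio 0.97) in arterial cells, against 11.5% and 10.1%. At day 7 it had 7 of 19 higher and 0 lower (median log2 ratio 0.58) in capillary cells, against 4.9% and 8.48%, and 0 of 7 higher and 0 lower in venous cells, against 9.41% and 14.6%. Day 1 counts were 4 of 12 higher and 0 lower in arterial, 6 of 13 higher and 1 lower in capillary and 4 of 10 higher and 0 lower in venous cells. Of all genes tested, 15.3% and 10.4% were higher and lower in arterial, 11.7% and 13.1% in capillary and 13.4% and 16% in venous cells. Its fibrillar collagen members Col1a1, Col1a2 and Col3a1 are fibroblast markers, and the 6 fibroblast markers summed to 647 CPM in day 7 arterial cells against 35.4 in intact arterial cells and 549 outside the gate. With cells thinned to 1000 UMIs the day 7 arterial median was -0.33. Lgals1 and S100a6 were higher in capillary cells at day 1, with 315 CPM against 12.6 in intact cord and 425 CPM against 19.6 in intact cord, and stood at 1481 and 2059 CPM outside the gate. At day 3, pericyte and smooth muscle markers summed to 1337 CPM in arterial cells and to 389 CPM in intact arterial cells, and the list members Acta2 and Tagln, both smooth muscle genes, stood at 149 CPM against 23.6 in intact cord and 149 CPM against 5.9 in intact cord. The part of these cells in the lists was not tested.

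Immediate early genes, which dissociation can also induce, were more often lower than higher at day 1, and Jund, Klf2 and Ier5 were the 3 that were higher in each segment. The counts were 3 of 20 higher and 7 lower (median log2 ratio -0.56) in arterial, 3 of 22 were higher and 8 lower (median log2 ratio -0.95) in capillary and 3 of 21 were higher and 10 lower (median log2 ratio -0.97) in venous cells. All genes tested gave 15.3% higher and 10.4% lower in arterial, 11.7% and 13.1% in capillary and 13.4% and 16% in venous cells. Atf3 stood at 184 CPM against 713 in intact cord in capillary cells, and Btg2 at 265 CPM against 897 in intact cord in venous cells. At day 7, 11 of 21 were higher and 0 lower (median log2 ratio 1.02) in venous cells, against 9.41% and 14.6% of all genes tested, and 4 of 22 were higher and 0 lower (median log2 ratio 0.32) in capillary cells, against 4.9% and 8.48%. The day 3 medians were -0.18 in arterial, -0.39 in capillary and -0.49 in venous cells. Ier5 stood at 394 CPM against 83.9 in intact cord in capillary cells at day 1 and 300.2 CPM outside the gate.

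**Figure D5:**
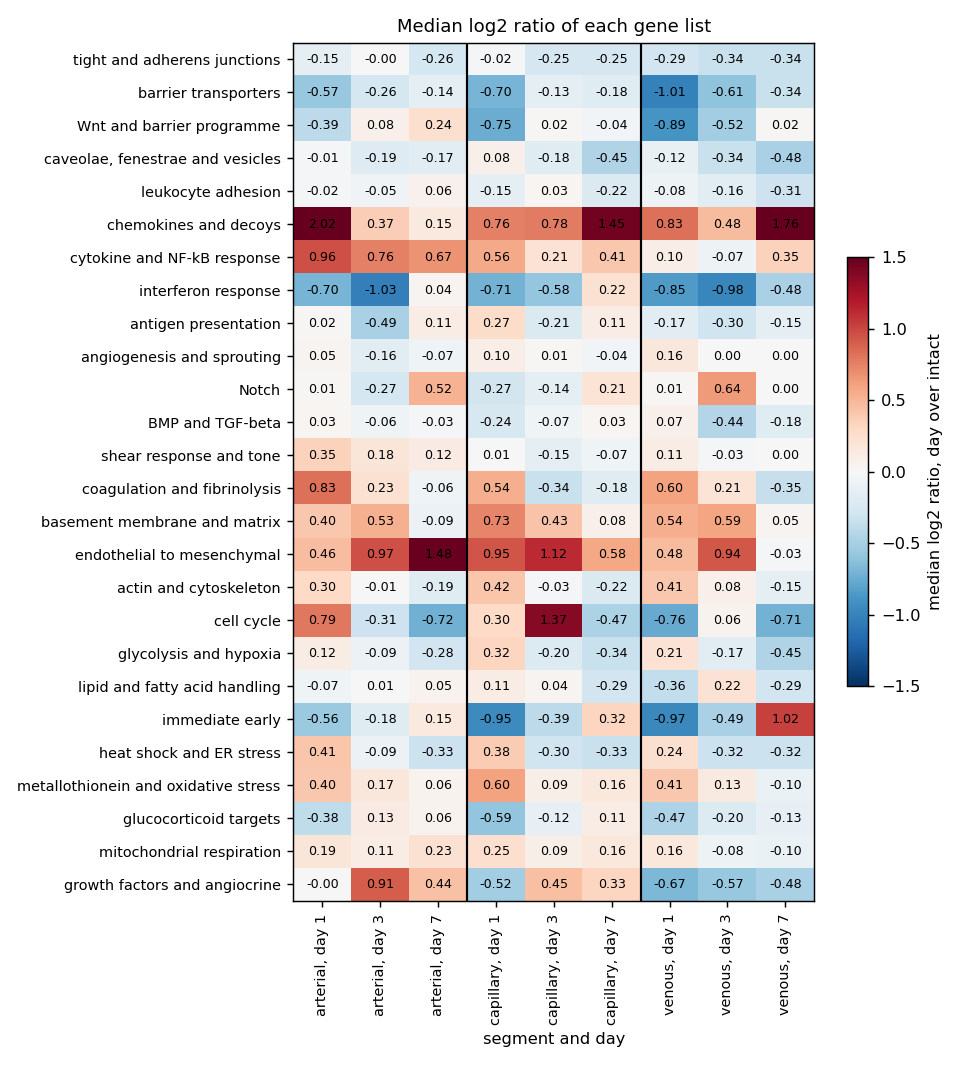
Median log2 ratio of CPM, day over intact cord, of the measured members of 26 gene lists (rows) in arterial, capillary and venous cells at days 1, 3 and 7 (columns); red is higher at that day and blue lower, with the value in each cell. Barrier transporters stand at -1.01 in venous and -0.70 in capillary cells at day 1, and the interferon list between -1.03 and -0.58 in all segments at days 1 and 3.

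To compare venous with capillary cells, the ratio of a day to intact cord was taken on CPM plus 10. This draws the log2 values of low genes towards 0, below the size of the plain ratios given above. At day 1 the leading genes with the lower venous value were Lrg1 and Ch25h, both of which were already present in venous cells of intact cord. On this scale Lrg1 had 1.76 in venous and 5.54 in capillary cells, with 842 and 17.8 CPM in intact cord. Ch25h had 1.85 in venous and 4.33 in capillary cells, with 119 and 7.35 CPM in intact cord. In the other direction the leading genes were Mvb12a, Fam219b, Rab35 and Fdps, but each rested on 2 or fewer UMIs in intact venous cells. At day 3 Slc38a3 had a log2 ratio of CPM plus 10 of -1.63 in venous and 0.22 in capillary cells, on 54 UMIs in the intact venous sum. At day 7 Ccnd2 (cyclin D2) had -2.30 in venous and -0.27 in capillary cells on the same scale, with 22.7 CPM against 151 in intact cord in venous cells, on 19 UMIs in the intact venous sum. The intact venous sum holds 37 cells, of which 3 carried Ackr1.

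Scaling bears on the smaller differences. Trimmed mean (TMM) scaling moved all log2 ratios by 0.14, 0.37 and 0.25 in venous cells and by -0.04, 0.18 and 0.19 in capillary cells at days 1, 3 and 7, and by no more than 0.09 in arterial cells. The medians over all genes were -0.04, -0.22 and -0.17 in venous, -0.01, -0.19 and -0.20 in capillary and 0.08, -0.05 and -0.04 in arterial cells. No named gene changed direction under TMM or median-of-ratios scaling, but 41 and 36 of 233 list medians changed sign. The split of called genes did: in venous cells at day 3, 788 genes were higher and 1170 lower by total UMIs, but 1333 higher and 587 lower by TMM. At day 7 the venous counts were 399 and 618 by total UMIs and 588 and 399 by TMM.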

How the data were processed

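UMI counts per gene and cell were used as the authors deposited them, in 1 table per library; they were made with Cell Ranger 3.0.2, per the submitters' processing notes, and the genome build and annotation are not given in the sources used here. The tables share 28615 gene names, and 2104 names that the intact and day 1 tables spell otherwise were matched by that spelling. Of the shared names, 7659 are of the Gm, Rik or ENSMUSG form used for mouse, while the labels give rat. The part of this in the gene levels was not tested. Every deposited cell passed minimums of 200 genes and 500 UMIs and a maximum of 20% for mitochondrial UMIs, so none was dropped. No doublet caller was run; likely doublets were left out as an alternative.

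Counts were summed by segment and library and scaled to CPM, with exact Poisson intervals. Ratios had exact conditional binomial intervals, shares Clopper-Pearson intervals and share differences Newcombe intervals. Only the ratio intervals and the 2-fold calls were checked on simulated data, drawn as Poisson counts without spread between cells. A side with 0 counts was set to a floor of 3 counts over the group. UMIs of 1 library are not replicates, so intervals cover counting error only. Named genes are the 5 highest and 5 lowest ratios of CPM plus 10 per segment and day, with at least 50 UMIs and 50 CPM on the higher side and there at least 0.5 of the level outside the gate; further genes are list members and segment markers. A few genes that met these rules are not reported here. Members and lists were chosen with earlier results of these data known. Alternatives covered depth, gates, split genes, doublets, count minimum and scaling. TMM factors came from edgeR 4.0.16 in R 4.3.3, and all else from Python 3.11.15 with scipy 1.17.1, numpy 2.4.6 and, for plots, matplotlib 3.10.9.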

Additional observations from a re-analysis of the deposited data

Results flagged for a closer look

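Values in pairs of segments lay on opposite sides of 0 against the same intact library, and in no pair was the difference tested. Sfrp4, a secreted Wnt antagonist, had a log2 ratio of 3.32 in arterial and -1.10 in capillary cells at day 7, where the 6 fibroblast markers summed to 647 and 39.7 CPM. The cell cycle list had a median log2 ratio of 0.79 in arterial and -0.76 in venous cells at day 1, but 2 of 9 measured members were higher and 2 lower in each. Of all genes tested, 15.3% and 10.4% were higher and lower in arterial and 13.4% and 16% in venous cells. The growth factor and angiocrine list had 0.91 in arterial and -0.57 in venous cells at day 3. Its counts were 6 of 13 higher and 1 lower in arterial cells, against 11.5% and 10.1% of all genes tested. In venous cells they were 4 of 13 higher and 3 lower, against 11.3% and 16.8%.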

How the results depend on the processing

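No share difference between a day and intact cord changed sign under any of the 10 settings tried, and none moved beyond its interval with an endothelial sum of at least 20 per 10000, without Selp or without likely doublets. The differences that moved, in percentage points, were as follows. Without Vwf they were 25 (arterial, day 1), -43.8 (capillary, day 1), -3.28 (capillary, day 3), 18.7 (venous, day 1) and 1.57 (venous, day 3). With Mfsd2a alone for capillary cells they were 7.24 (arterial, day 1), 8.58 (arterial, day 7), -59.99 (capillary, day 1), -31.1 (capillary, day 3), -17.5 (capillary, day 7), 28.5 (venous, day 3) and 8.91 (venous, day 7). With cells thinned to 1000 UMIs they were -62.2 (capillary, day 1), -11.1 (capillary, day 3), 51.5 (venous, day 1) and 8.69 (venous, day 3). With a lead of at least 2 UMIs they were -79.5 (capillary, day 1) and 67.1 (venous, day 1). With tip gene cells kept they were -57.3 (capillary, day 1) and 49.2 (venous, day 1). With a phagocyte sum of at most 5 per 10000 they were 8.61 (arterial, day 7) and -9.93 (capillary, day 7). Without Gkn3 it was 1.98 (arterial, day 7). Counts of genes called at least 2-fold moved over 1.5 times as follows. With at least 50 UMIs over both sums the counts were higher 199 (arterial, day 1), 88 (arterial, day 3), 54 (arterial, day 7), 550 (capillary, day 1), 390 (capillary, day 3), 279 (capillary, day 7), 248 (venous, day 3) and 66 (venous, day 7) and lower 139 (arterial, day 1), 64 (arterial, day 3), 31 (arterial, day 7), 855 (capillary, day 1), 426 (capillary, day 3), 289 (capillary, day 7), 410 (venous, day 1), 222 (venous, day 3) and 47 (venous, day 7). With no minimum beyond 1 UMI the counts were higher 1134 (arterial, day 3), 855 (arterial, day 7), 2560 (capillary, day 1), 923 (capillary, day 7) and 965 (venous, day 7) and lower 1809 (arterial, day 1), 1307 (arterial, day 3), 1479 (arterial, day 7), 1743 (capillary, day 3), 1447 (capillary, day 7), 2469 (venous, day 1), 2440 (venous, day 3) and 1741 (venous, day 7). With thinned cells the counts were higher 322 (arterial, day 1), 218 (arterial, day 3), 269 (arterial, day 7), 658 (venous, day 1), 374 (venous, day 3) and 176 (venous, day 7) and lower 211 (arterial, day 1), 182 (arterial, day 3), 166 (arterial, day 7), 603 (venous, day 1), 413 (venous, day 3) and 222 (venous, day 7). With a lead of at least 2 UMIs the counts were higher 685 (venous, day 1) and 493 (venous, day 3). With TMM scaling the counts were higher 1333 (venous, day 3) and lower 587 (venous, day 3) and 399 (venous, day 7). With median-of-ratios scaling the counts were higher 1228 (venous, day 3) and lower 716 (venous, day 3) and 404 (venous, day 7). With the lower phagocyte limit the counts were higher 247 (venous, day 7). Among list medians with a log2 ratio of at least 1 in size, thinning reversed cell cycle in capillary cells at day 3 (-0.28) and endothelial to mesenchymal in arterial cells at day 7 (-0.33). Among list medians of any size, 39 of 218 changed sign under thinning. Of 233 list medians, 41 changed sign under TMM and 36 under median-of-ratios scaling. Of 85 named gene ratios with a value after thinning, 41 moved beyond their interval and 0 changed sign. Thinning and the stricter count minimum leave fewer UMIs to test; the cause of the other moves was not tested. Keeping tip gene cells for gene levels was chosen after seeing the data, and moved 16 of 90 named ratios. No paired analysis was possible because each group holds 1 library, and leaving out a replicate gives no value for the same reason. The intact venous and arterial sums hold 37 and 42 cells, which limits every ratio against them.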

Other observations

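The counts below stand beside these shares over all genes: at day 1, 15.3% and 10.4% of all genes tested were higher and lower in arterial, 11.7% and 13.1% in capillary and 13.4% and 16% in venous cells. At day 7 they were 8.94% and 9.58% in arterial, 4.9% and 8.48% in capillary and 9.41% and 14.6% in venous cells. The medians over all genes were 0.08, -0.01 and -0.04 at day 1 and -0.04, -0.20 and -0.17 at day 7 in arterial, capillary and venous cells. Few protein folding genes were called, and the shares that were higher at day 1 lay under those of all genes. At day 1 the counts were 3 of 26 higher and 1 lower (median log2 ratio 0.41) in arterial cells, 3 of 27 higher and 0 lower (median log2 ratio 0.38) in capillary cells and 2 of 27 higher and 4 lower (median log2 ratio 0.24) in venous cells. At day 7 they were 0 of 25 higher and 2 lower (median log2 ratio -0.33) in arterial cells, 0 of 27 higher and 0 lower (median log2 ratio -0.33) in capillary cells and 1 of 24 higher and 4 lower (median log2 ratio -0.32) in venous cells. Genes of glycolysis and hypoxia had day 1 counts of 1 of 21 higher and 2 lower (median log2 ratio 0.12) in arterial cells, 3 of 24 higher and 3 lower (median log2 ratio 0.32) in capillary cells and 3 of 23 higher and 3 lower (median log2 ratio 0.21) in venous cells, and day 7 counts of 0 of 18 higher and 3 lower (median log2 ratio -0.28) in arterial cells, 0 of 24 higher and 3 lower (median log2 ratio -0.34) in capillary cells and 0 of 19 higher and 5 lower (median log2 ratio -0.45) in venous cells. Actin and cytoskeleton genes had day 1 counts of 4 of 27 higher and 1 lower (median log2 ratio 0.30) in arterial cells, 5 of 27 higher and 1 lower (median log2 ratio 0.42) in capillary cells and 6 of 27 higher and 1 lower (median log2 ratio 0.41) in venous cells.

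Genes of mitochondrial respiration were nearly level, with day 1 counts of 1 of 22 higher and 0 lower (median log2 ratio 0.19) in arterial cells, 1 of 22 higher and 0 lower (median log2 ratio 0.25) in capillary cells and 0 of 22 higher and 0 lower (median log2 ratio 0.16) in venous cells. Genes of oxidative stress and metallothioneins had day 1 counts of 3 of 17 higher and 0 lower (median log2 ratio 0.40) in arterial cells, 6 of 21 higher and 0 lower (median log2 ratio 0.60) in capillary cells and 3 of 17 higher and 1 lower (median log2 ratio 0.41) in venous cells. Glucocorticoid target genes had day 1 counts of 4 of 15 higher and 3 lower (median log2 ratio -0.38) in arterial cells, 5 of 16 higher and 5 lower (median log2 ratio -0.59) in capillary cells and 3 of 15 higher and 4 lower (median log2 ratio -0.47) in venous cells.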
